A study of Glycine max with 20 samples.

Results

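The genes described here are 4 soybean (Glycine max) gene models that encode enzymes of isoflavonoid synthesis. They are the isoflavone synthases IFS1 (Glyma07g32330.1, chromosome 7) and IFS2 (Glyma13g24200.1, chromosome 13) and the chalcone isomerases CHI1A (Glyma20g38560.1, chromosome 20) and CHI1B2 (Glyma10g43850.1, chromosome 10). They were taken by identifier from a table of 66210 gene models, which held 1 row for each of them. The table gives no gene names or coordinates, so the names are those given for these identifiers and the chromosome is read from the identifier. RefSeq (Glycine_max_v4.0) lists genes of the same 4 names on the same 4 chromosomes but pairs none with these identifiers, and it gives IFS2 as another name of IFS1 and IFS1 as another name of IFS2.

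RNA from leaves of a pair of near-isogenic lines was sequenced in 20 libraries, 2 biological replicates for each line at each of 5 times. The labels give the genotypes as Rag2, a line resistant to aphids, and rag2, a susceptible line, with leaves free of aphids (0 h) or taken 4, 8, 24 or 48 h after infestation. The count table calls the lines BC and W and does not say which is resistant, so those names are kept and nothing below is read as higher or lower in the resistant line. The later times have no uninfested libraries here, so infestation and time of sampling cannot be told apart. Age of the plants, growth conditions and the number of plants per replicate are not given in the sources used here, and the p-values measure the spread between these libraries.

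Isoflavonoids are legume defence compounds and signals to root symbionts, and they branch from the general phenylpropanoid pathway. Chalcone isomerase closes the ring of a chalcone to give a flavanone, and the CHI1 enzymes are of the legume type that also accepts the deoxychalcone on the way to daidzein. Isoflavone synthase, a cytochrome P450 enzyme, then moves the aryl ring of the flavanone, the committed step towards daidzein, genistein and the glyceollin phytoalexins. The 4 genes therefore cover 2 successive steps, with 2 of the gene copies each.

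The libraries held 7558768 to 38227436 reads in gene models. The labelled tissue could not be checked against leaf markers, because the table pairs no identifier with a gene. The replicates of the BC 0 h group were farthest apart: the median absolute log2 difference between replicates over all tested models was 0.61 in that group and 0.22 to 0.39 in the other 9 groups. That difference does not show which replicate deviates. Replicate 2 had the fewest reads of the 20 libraries (7558768) and the largest share outside models, 7.46% against 3.85% in replicate 1. For this reason replicate 2 of the BC 0 h group is called the library that stood apart. The main log2 changes that rest on BC 0 h are also given without it. Levels are in CPM, reads scaled to a common library size adjusted by TMM, and since they are not divided by gene length, levels are compared across samples and not between genes. In bulk leaf RNA, fewer cells that use a gene and less RNA per cell cannot be told apart.

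IFS1 had 0 reads in all 20 libraries. At the TMM-scaled library sizes, 3 reads, the limit that a count of 0 allows, correspond to 0.0081 CPM over all libraries together, and within single libraries to 0.0747 to 0.429 CPM, for counting error only. Of all gene models, 18.8% had 0 reads in every library. The nearest models with reads on either side by locus number, the digits after the letter g, were Glyma07g32320.1 with 3 reads in total and Glyma07g32350.1 with 14, followed by Glyma07g32310.1 with 1 and Glyma07g32360.1 with 31142. IFS1 and IFS2 are close copies, the table lists 0 reads aligned to several places in every library, and the treatment of shared reads is not given in the sources used here. A transcript whose reads were lost or were given to IFS2 therefore cannot be told apart from one that was not detected at this depth. IFS1 entered no test, and the ratio of IFS2 to IFS1 within libraries could not be formed.

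IFS2 had the highest mean of each line at 24 h and the lowest at 0 h, but its replicates lay far apart and no change passed the test in edgeR. In BC, replicates 1 and 2 were at 17.9 and 17.4 CPM at 0 h, 66.9 and 22.2 CPM at 4 h, 30.9 and 57.8 CPM at 8 h, 104 and 47.2 CPM at 24 h, and 30.1 and 12.4 CPM at 48 h. In W they were at 14.9 and 5.92 CPM at 0 h, 26.7 and 15.2 CPM at 4 h, 33.7 and 17.97 CPM at 8 h, 15.6 and 82.9 CPM at 24 h, and 15.5 and 17.6 CPM at 48 h. Both later libraries were above both 0 h libraries in 7 of 8 comparisons, the exception being 48 h in BC. The comparisons within a line share the same 0 h libraries and are not independent, and the share of models with the joint pattern was not computed. In W the lower library at 4, 24 and 48 h exceeded the higher 0 h library by less than 1 CPM. Among all tested models, the share with both later libraries above was 19.1%, 21.5% and 21.3% at 4, 8 and 24 h in BC, and 20.3%, 22.5%, 15.8% and 22.1% at 4, 8, 24 and 48 h in W. Between 98 and 2994 reads stood behind each value.

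**Figure D1:**
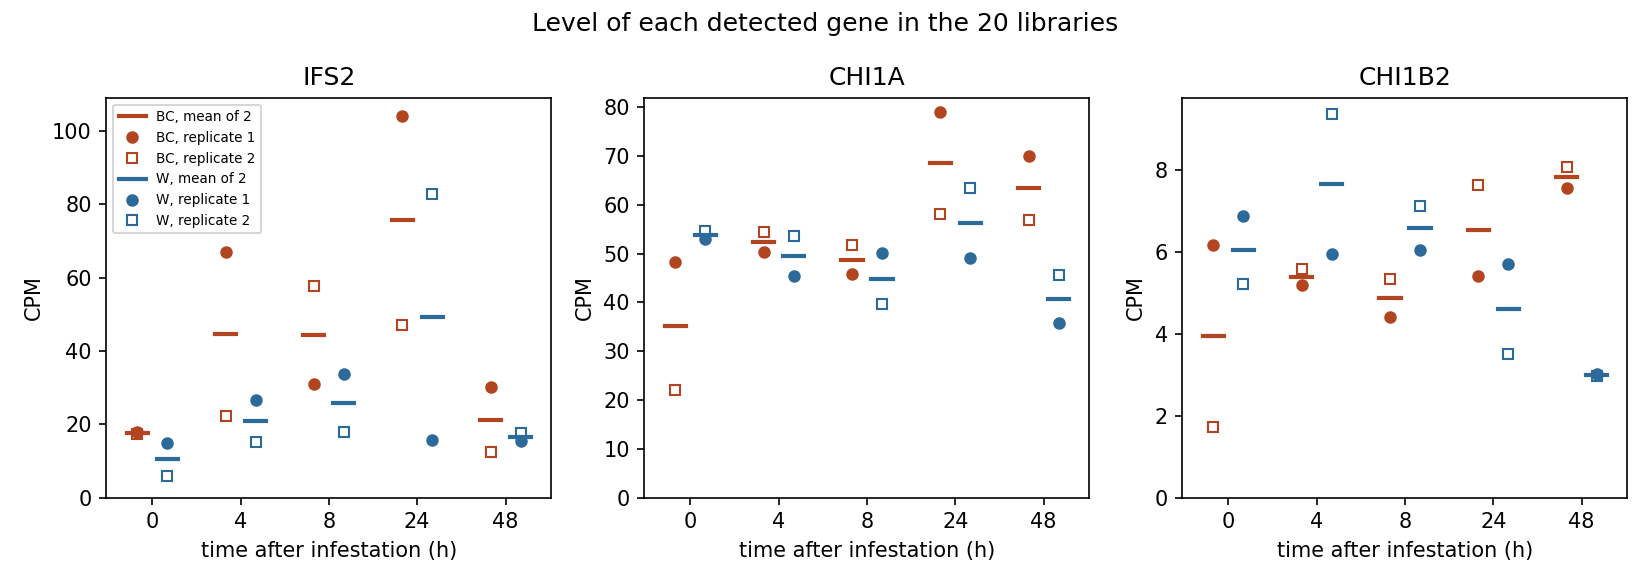
CPM of IFS2, CHI1A and CHI1B2 (one panel each, own axis from 0) at 0, 4, 8, 24 and 48 h after infestation, BC left of W at each time; filled circles are replicate 1, open squares replicate 2 and bars the mean of 2 libraries. IFS2 is highest at 24 h in both lines, where the replicates are also farthest apart (104 and 47.2 CPM in BC, 15.6 and 82.9 CPM in W), and CHI1B2 at 48 h is near 8 CPM in BC and near 3 CPM in W.

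As group means, IFS2 was at 75.6 ± 40.2 CPM at 24 h in BC, against 17.7 ± 0.318 CPM at 0 h (SD, n = 2 each). In W it was at 49.2 ± 47.6 CPM at 24 h, against 10.4 ± 6.36 CPM at 0 h (SD, n = 2 each). A mean highest at 24 h in both lines was found in 3.77% of tested models, and a mean lowest at 0 h in both lines in 3.11%. With the lines averaged, the log2 fold change of IFS2 at 24 h was 2.17, with a standard error of 0.55 and a 95% interval of 0.98 to 3.37 (edgeR adjusted p = 0.488 over 38918 models). DESeq2 gave the same fold, 2.17, and called it (adjusted p = 0.0101), while over the other alternatives that kept all libraries the adjusted p reached 0.993, in limma voom. Leaving out replicate 2 of the BC 0 h group gave 2.16 (edgeR adjusted p = 0.852). With one library left out it was lowest, 1.35, without replicate 2 of the W 24 h group, which held the 82.9 CPM, and highest, 2.58, without replicate 1 of the W 0 h group.

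At the other times the lines-averaged log2 fold change of IFS2 was 1.18 ± 0.54 at 4 h, 1.32 ± 0.54 at 8 h and 0.47 ± 0.54 at 48 h (± standard error), with edgeR adjusted p-values of 0.329, 0.227 and 0.762. Without replicate 2 of BC at 0 h, IFS2 was at 1.17, 1.31 and 0.46. Single libraries moved the 4 h value to 0.67, without BC 4 h replicate 1. They moved the 48 h value to 0.08 without BC 48 h replicate 1, 0.73 without BC 48 h replicate 2, 0.21 without W 0 h replicate 2 and 0.88 without W 0 h replicate 1. Within the lines, at 24 h IFS2 differed from 0 h by 2.10 in BC (95% interval 0.41 to 3.79, edgeR adjusted p = 0.216) and by 2.25 in W (0.56 to 3.93, edgeR adjusted p = 1.00) on the log2 scale. The value in BC was 2.08 without replicate 2 at 0 h. The value in W was 0.59 without replicate 2 at 24 h, the 82.9 CPM library, and 3.06 without replicate 1 at 0 h. The difference between these changes was -0.15, with a 95% interval of -2.44 to 2.14, an interval that spans more than a doubling in either direction.

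Of the 3 genes with reads, IFS2 had the largest averaged difference between the lines. Its mean was higher in BC at all 5 times, a pattern found in 3.3% of tested models, but the libraries overlapped at 4, 8, 24 and 48 h. Only at 0 h were both BC libraries above both W libraries, as in 16.6% of tested models. The log2 difference of IFS2 at 0 h was 0.77 (edgeR adjusted p = 0.669), and it was 0.79 without replicate 2 of BC, 0.24 without replicate 2 of W and 1.57 without replicate 1 of W. Over all times IFS2 averaged 40.7 ± 28.8 CPM in the BC libraries and 24.6 ± 21.8 CPM in the W libraries (SD over 10 libraries of 5 times). The log2 difference was 0.73, with a standard error of 0.34, a 95% interval of -0.0029 to 1.46 and an adjusted p of 0.547 in edgeR. The gene's coefficient of variation between replicates, as fitted by edgeR, was 0.506, above that of 92.9% of tested models, against 0.222 for CHI1A (42.8%) and 0.279 for CHI1B2 (65.5%).

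IFS2 lies at locus number 24200 of chromosome 13, and 20 tested models separate it from the nearest model that differed between the lines, Glyma13g24470.1 (1.05 on the log2 scale, edgeR adjusted p = 0.00224). In this comparison, averaged over times, edgeR called 40 of 2694 tested models on chromosome 13, against 83 of all 38918 tested models (0.213%). The adjoining Glyma13g24210.1 had 10.9 ± 11.5 CPM over the BC libraries and 2.91 ± 4.81 CPM over the W libraries (SD, n = 10 per line), a log2 difference of 1.84 ± 0.80 (standard error; edgeR adjusted p = 0.535). Its lines-averaged log2 fold change at 24 h was 3.57 (edgeR adjusted p = 0.516), in the direction of IFS2. Its counts ran from 2 to 993 reads per library, and the 3.57 was not computed again with single libraries left out. The next models on either side with enough reads for the test, Glyma13g24180.1 and Glyma13g24220.1, had log2 fold changes between the lines of -0.12 and -0.30, and Glyma13g24190.1 had 10 reads in all.

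CHI1A had the narrowest range of group means. In BC, replicates 1 and 2 were at 48.2 and 22.0 CPM at 0 h, 50.3 and 54.3 CPM at 4 h, 45.8 and 51.8 CPM at 8 h, 79.0 and 58.2 CPM at 24 h, and 69.9 and 56.8 CPM at 48 h. In W they were at 53.0 and 54.6 CPM at 0 h, 45.3 and 53.7 CPM at 4 h, 50.2 and 39.6 CPM at 8 h, 49.1 and 63.4 CPM at 24 h, and 35.8 and 45.6 CPM at 48 h. The lowest value of the 20 was replicate 2 of the BC 0 h group, the library that stood apart, with 154 reads, and the other 19 libraries lay between 35.8 and 79.0 CPM. The highest group mean, 68.6 CPM in BC at 24 h, was 1.95 times the lowest, 35.1 CPM in BC at 0 h.

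Against 0 h in BC, the log2 fold change of CHI1A was 0.96 ± 0.30 at 24 h and 0.85 ± 0.30 at 48 h (± standard error), with edgeR adjusted p-values of 0.186 and 0.311. Without replicate 2 of the BC 0 h group these were 0.51 and 0.39. Without replicate 1, which leaves replicate 2 as the only baseline, they were 1.65 and 1.54. In W the changes were 0.06 at 24 h and -0.40 at 48 h (edgeR adjusted p = 1.00 and 0.630). Between the lines, both BC libraries were below both W libraries at 0 h, as in 18.4% of tested models, and above them at 48 h, as in 26.3%. The log2 difference of CHI1A at 0 h was -0.61 (edgeR adjusted p = 0.401), and without replicate 2 of BC it was -0.16. With the lines averaged, CHI1A differed at 24 h from 0 h by 0.51 (edgeR adjusted p = 0.533), and without that library by 0.29 (edgeR adjusted p = 0.859). Without BC 0 h replicate 1 it was 0.86 (edgeR adjusted p = 0.0144). Averaged over the times, CHI1A was at 53.6 ± 15.1 CPM in the BC libraries and 49.0 ± 7.92 CPM in the W libraries (SD, n = 10 per line). That difference was 0.10 on the log2 scale (edgeR adjusted p = 0.825), with a 95% interval that runs from a fold of 0.882 to one of 1.31.

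RefSeq lists CHI1B1 and CHI2-A as the genes directly after CHI1A on chromosome 20. The next loci in the count table are Glyma20g38570.1 and Glyma20g38580.1, but no source at hand ties these identifiers to those names. Glyma20g38570.1 averaged 1.90 ± 1.27 CPM over the BC libraries and 1.00 ± 0.597 CPM over the W libraries, and Glyma20g38580.1 averaged 66.3 ± 17.3 CPM over the BC libraries and 70.4 ± 24.4 CPM over the W libraries (SD, n = 10 per line). The log2 fold changes between the lines were 0.90 and -0.0027 (edgeR adjusted p = 0.451 and 0.999). On the other side, Glyma20g38530.1 differed by -0.04 (edgeR adjusted p = 0.878) and Glyma20g38540.1 had 48 reads in all. No model of the 1703 tested on chromosome 20 passed the averaged comparison of the lines, which 0.213% of all tested models passed.

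CHI1B2 had few reads, 12 to 307 per library. In BC, replicates 1 and 2 were at 6.18 and 1.71 CPM at 0 h, 5.19 and 5.58 CPM at 4 h, 4.42 and 5.34 CPM at 8 h, 5.42 and 7.64 CPM at 24 h, and 7.57 and 8.08 CPM at 48 h. In W they were at 6.88 and 5.22 CPM at 0 h, 5.96 and 9.38 CPM at 4 h, 6.04 and 7.11 CPM at 8 h, 5.71 and 3.51 CPM at 24 h, and 3.02 and 2.97 CPM at 48 h. In these libraries the order of the lines varied between times, but edgeR called no difference between the lines for CHI1B2 at 4, 8 or 48 h. Both BC libraries were below both W libraries at 4 h and 8 h, as in 15% and 22.2% of tested models. Both were above at 48 h, as in 26.3%. The reverse separation was found in 13.9%, 24.2% and 25.2% of models at 4, 8 and 48 h. The library that stood apart, BC 0 h replicate 2, gave the 12 reads and the lowest of the 20 values. No gene of the 3 had both BC libraries below both W libraries at 24 h or 48 h, where 19.6% and 25.2% of tested models did.

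At 48 h the mean of CHI1B2 was 7.83 ± 0.360 CPM for BC and 2.99 ± 0.0322 CPM for W (SD, n = 2 each). The log2 difference was 1.38, with a standard error of 0.44, a 95% interval of 0.43 to 2.33 and an adjusted p of 0.443 in edgeR. It lay between 1.33 and 1.43 with any one library left out, and its adjusted p lay between 0.0779 and 0.486 over the alternatives that kept all libraries of both groups. Against 0 h, CHI1B2 differed at 48 h by 0.92 in BC and by -1.01 in W (edgeR adjusted p = 0.391 and 0.355). Without replicate 2 of the BC 0 h group the change in BC was 0.34. Averaged over the times CHI1B2 was at 5.71 ± 1.86 CPM in the BC libraries and 5.58 ± 2.02 CPM in the W libraries (SD, n = 10 per line). The log2 difference was 0.08, with a 95% interval of -0.32 to 0.48 (edgeR adjusted p = 0.920). Of the models around CHI1B2, Glyma10g43840.1 and Glyma10g43870.1 differed between the lines by -0.04 and -0.03 (edgeR adjusted p = 0.920 and 0.943), and Glyma10g43830.1 and Glyma10g43860.1 had 76 and 2 reads in all.

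**Figure D2:**
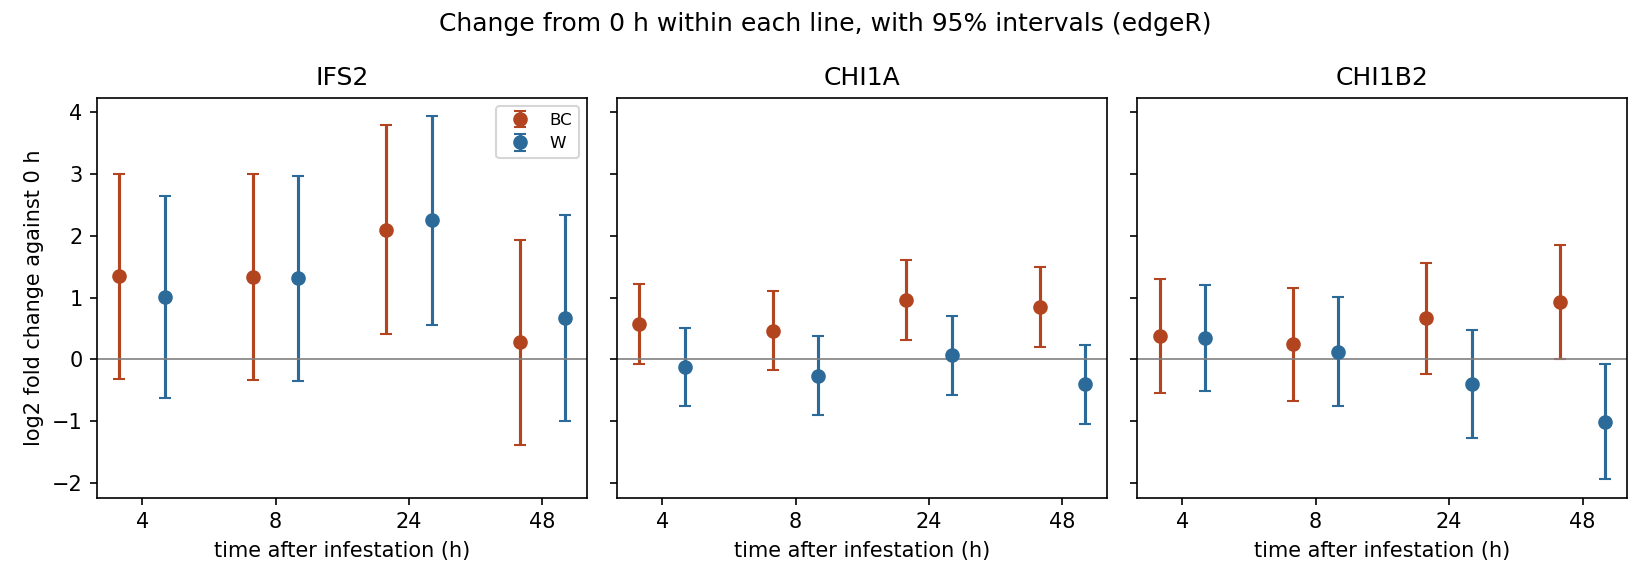
Log2 fold change against 0 h of the same line at 4, 8, 24 and 48 h (edgeR, points) with 95% intervals (bars), BC left of W, for IFS2, CHI1A and CHI1B2 on a shared axis. The IFS2 points are above 0 in both lines, highest at 24 h (2.10 in BC, 2.25 in W), although the W value is 0.59 without replicate 2 at 24 h. At 4, 8 and 48 h the IFS2 intervals span 0 in both lines. The CHI1B2 points at 48 h lie on opposite sides of 0 (0.92 in BC, -1.01 in W), and the BC value is 0.34 without BC 0 h replicate 2.

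Across all comparisons no gene of the 4 was called by edgeR at an adjusted p below 0.05, with IFS1 untested. Between the lines averaged over time, 0 of 3 were called, against 0.213% of tested models, and 0 had an unadjusted p below 0.05, against 9.11%. Between the lines at single times, 0 of 15 tests passed, against 0.018%, 0.0308%, 0.0257%, 0.0308% and 0.0154% of models at 0, 4, 8, 24 and 48 h, with 1 unadjusted p below 0.05 (CHI1B2 at 48 h). Among all models 13.1%, 4.16%, 13.2%, 2.83% and 8.82% had one at these times. For later times against 0 h with the lines averaged, 0 of 12 tests passed, with 4 unadjusted p below 0.05 (IFS2 at 4, 8 and 24 h and CHI1A at 24 h). The shares of all models called there were 1.64%, 3.93%, 0% and 0.0257% at 4, 8, 24 and 48 h, and 15%, 17.4%, 8.99% and 11.3% had an unadjusted p below 0.05. Within the lines, 0 of 24 tests passed, with 6 unadjusted p below 0.05. These were IFS2 at 24 h in both lines, CHI1A at 24 h and 48 h in BC, and CHI1B2 at 48 h in both lines. The shares of models called at 4, 8, 24 and 48 h were 0.0822%, 3.55%, 0% and 0% in BC, and 0.794%, 1.53%, 0% and 0.0771% in W. The shares with an unadjusted p below 0.05 were 19%, 23.1%, 17.6% and 12.7% in BC, and 8.45%, 11%, 3.86% and 12.6% in W. In these comparisons DESeq2 called IFS2 at 24 h with the lines averaged and no other, and limma voom with library weights called none.

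Whether the course over time differed between the lines was tested jointly over the 4 later times. No gene of the 3 passed, against 0% of all models (edgeR adjusted p = 0.985 for IFS2, 0.603 for CHI1A and 0.597 for CHI1B2), and CHI1B2 had an unadjusted p of 0.0248, as did 8.02% of models below 0.05. DESeq2 and limma voom called none either. Without BC 0 h replicate 2 the edgeR adjusted p was 0.987 for IFS2 and 0.680 for CHI1A and CHI1B2, and without BC 0 h replicate 1 edgeR called CHI1A and CHI1B2 (adjusted p = 0.0447 and 0.0228).

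The ratio of CHI1B2 to CHI1A reads, which does not depend on the scaling of libraries, ranged from 0.0557 to 0.180. Its log2 mean was -3.26 ± 0.320 over the BC libraries and -3.20 ± 0.555 over the W libraries (SD, n = 10 per line). The difference of -0.0549 was within the spread (two-sided exact permutation of the lines within each time, 7776 arrangements, p = 0.792). Within times the sign of the difference varied. It was -0.55 at 4 h and -0.56 at 8 h, where both BC libraries were below both W libraries, and 0.73 at 48 h, where both BC libraries were above, while the libraries overlapped at 0 h and 24 h. With 2 libraries per line and time, a permutation test at a single time cannot reach a p below 0.05.

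**Figure D3:**
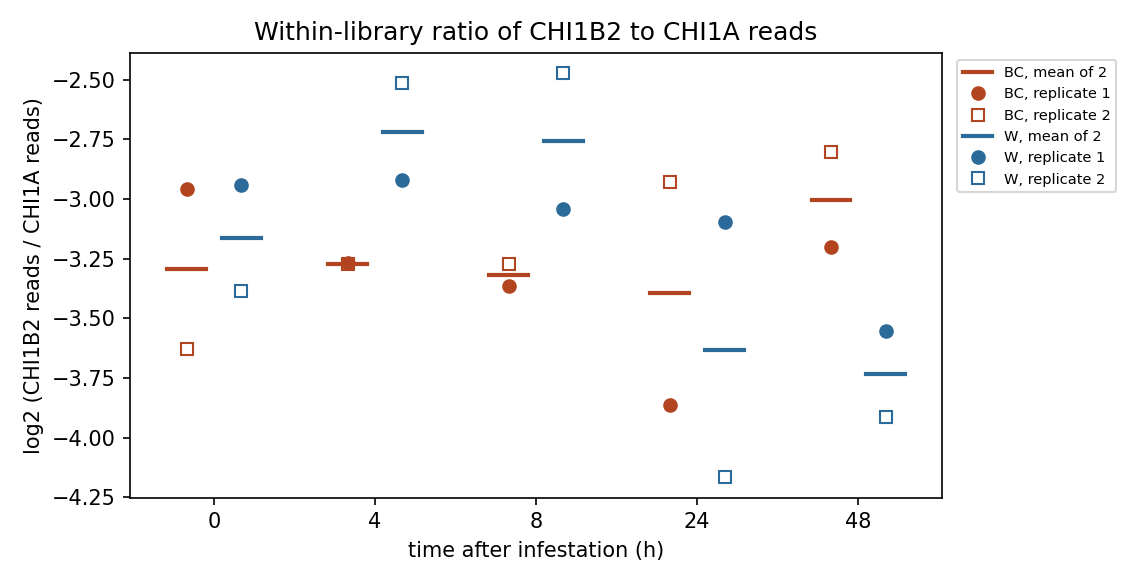
Log2 ratio of CHI1B2 to CHI1A reads (with 0.5 added to each count) in each library by time after infestation, BC left of W; filled circles are replicate 1, open squares replicate 2 and bars the mean of 2. BC lies below W at 4 h and 8 h and above W at 48 h, and the lines overlap at 0 h and 24 h.

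Across the 20 libraries, which share the 10 groups, log2 CPM of CHI1A and CHI1B2 had a Pearson r of 0.640 (permutation p = 0.00522, adjusted over 3 pairs p = 0.0157) and a Spearman rho of 0.389 (permutation p = 0.0912, adjusted p = 0.273). The permutations moved all 20 libraries freely, so the p-values of these correlations do not allow for libraries that share line and time. The relation of CHI1A and CHI1B2 rested on a few libraries. It was 0.397 without the 2 libraries farthest from the median of CHI1A and 0.317 without replicate 2 of the BC 0 h group. Within lines it was 0.864 in BC and 0.196 in W (n = 10 each). The BC value includes replicate 2 of the BC 0 h group, the lowest of the 20 libraries for both genes, and was not computed without it. IFS2 had an r of 0.393 with CHI1A (permutation p = 0.0848, adjusted p = 0.127; rho 0.266, permutation p = 0.253, adjusted p = 0.380) and of -0.0332 with CHI1B2 (permutation p = 0.889, adjusted p = 0.889; rho -0.176, permutation p = 0.455, adjusted p = 0.455). Without the 2 farthest libraries, which were replicate 1 of BC and replicate 2 of W at 24 h, these were 0.148 and 0.0783. They were 0.463 and 0.113 within BC and 0.282 and -0.227 within W.

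In order of group means, high to low, neighbouring groups overlapped in 8 of 9 steps for IFS2 and in 9 of 9 for CHI1A and for CHI1B2. For IFS2 the order ran from BC 24 h (75.6 CPM) over W 24 h (49.2), BC 4 h (44.6), BC 8 h (44.4), W 8 h (25.8), BC 48 h (21.2), W 4 h (20.9), BC 0 h (17.7) and W 48 h (16.5) to W 0 h (10.4). The one step without overlap was the last. For CHI1A the order after BC 24 h and BC 48 h (63.4 CPM) was W 24 h (56.2), W 0 h (53.8), BC 4 h (52.3), W 4 h (49.5), BC 8 h (48.8), W 8 h (44.9), W 48 h (40.7) and BC 0 h. For CHI1B2 it was BC 48 h (7.83 CPM), W 4 h (7.67), W 8 h (6.58), BC 24 h (6.53), W 0 h (6.05), BC 4 h (5.39), BC 8 h (4.88), W 24 h (4.61), BC 0 h (3.95) and W 48 h (2.99).

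Among 31146 other tested models with an average log2 CPM of at least 1, those most like each gene over the 20 libraries were ranked by the Pearson r of log2 CPM, given here as a description. For IFS2 they were Glyma17g10450.1 (0.870), Glyma13g17220.1 (0.848) and Glyma05g28560.1 (0.835). Glyma13g17220.1 was at 59.7 CPM at 24 h and 29.1 CPM at 0 h in BC, and at 53.3 CPM at 24 h and 27.6 CPM at 0 h in W, a narrower range than that of IFS2. For CHI1A they were Glyma17g33800.1 (0.922), Glyma03g03200.1 (0.921) and Glyma11g11290.1 (0.889), with 0.842, 0.862 and 0.744 without replicate 2 of the BC 0 h group. For CHI1B2 they were Glyma01g41130.1 (0.879), Glyma01g02270.1 (0.878) and Glyma04g15160.1 (0.866), with 0.780, 0.780 and 0.846 without that library. The other genes of the pathway, such as chalcone synthases and reductases, are not described, since no source at hand pairs their names with identifiers of the table.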

How the data were processed

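The authors deposited raw read counts per gene model, 1 column per library, without normalization. The submitters' processing notes name the aligner TopHat 1.4.1, the counter HTSeq 0.5.3, and Cuffdiff 1.3.0 and edgeR. The sources used here give no build, annotation or strand setting, so overlapping or antisense genes cannot be separated. Rows without a gene were excluded (2.79% to 7.46% of reads outside models, 1.43% to 1.86% ambiguous). Column names give line, hour and replicate.

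Models were kept with filterByExpr (38918 of 66210), scaled by TMM and fitted as 10 line-by-time groups in edgeR 4.0.16 (R 4.3.3; robust quasi-likelihood test, two-sided), which was tested on simulated data. There a 2-fold change was recovered in 82% of 100 changed models between the lines averaged over times. At 24 h against 0 h it was recovered in 45% with the lines averaged and in 8% within BC. For a 4-fold change these were 99%, 97% and 74%. A doubling within a line would thus rarely be called. The changed models were drawn at random from those with an average log2 CPM of at least 1. The shares are therefore no measure for IFS2, whose replicates varied more than those of 92.9% of tested models. Adjusted p-values are Benjamini-Hochberg over all models. Intervals are 95%, from the fitted standard errors. Alternatives were DESeq2 1.42.0, its size factors, limma 3.58.1 voom with library weights, no filter, a replicate block, only the 4 libraries compared, and leaving out each library. Named besides the 4 genes were, by rule, the 2 models with reads on either side and the 3 most similar, and Glyma13g24470.1, chosen after its values were seen. Genes and lists were chosen with earlier results of these data known.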

Additional observations from a re-analysis of the deposited data

Results flagged for a closer look

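The estimated changes of both chalcone isomerases at 48 h had opposite signs in the lines, although edgeR called none of these changes. They were flagged by a scan of each gene with reads at each later time, which accepted either direction. For CHI1B2 both 48 h libraries were above both 0 h libraries in BC, and both were below in W. This pattern was found in 6.05% of tested models, and its mirror image in 6.72%. The difference between the log2 changes, BC minus W, was 1.93 with a 95% interval of 0.62 to 3.24 (edgeR adjusted p = 0.239). For CHI1A the same pattern held, with a difference of 1.25 and a 95% interval of 0.34 to 2.16 (edgeR adjusted p = 0.243). These tests at a single time were added after the data were seen, called 0 of 38918 models, and had an unadjusted p below 0.05 in 14.6% of them. Both differences include the BC 0 h group, whose replicate 2 was the lowest of the 20 libraries for both genes. Without that library the log2 change in BC was 0.34 for CHI1B2 and 0.39 for CHI1A, against 0.92 and 0.85 with it. The difference between the log2 changes was not computed without that library. The changes in W, which do not involve BC 0 h, were -1.01 for CHI1B2 (95% interval -1.94 to -0.08) and -0.40 for CHI1A (-1.04 to 0.24, which spans 0). Between the lines at 48 h the log2 differences were 1.38 and 0.64.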

How the results depend on the processing

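Of 1464 values of the 3 genes under alternatives, 1424 kept direction and side of the threshold, 24 changed sign and 16 became called. These include adjusted p-values of the interaction, which have no direction. Leaving out 1 library gave 1140 of the values, and at a single time or within a line most such libraries lay outside the comparison. Those values could hardly move, so the count does not measure stability. DESeq2 called 1 of the 12 tests of later times with the lines averaged (IFS2 at 24 h), and limma voom turned CHI1B2 at 48 h, lines averaged, to 0.0546; the cause was not tested. The replicate block called 0 genes in every comparison (IFS2 at 24 h, lines averaged, 2.25). The replicate numbers showed no pairing common to all groups: the median correlation of deviations over 45 group pairs was -0.0115. The correlations ran from -0.478 to 0.498, and 15 pairs were over 0.1. Whether the replicates of some groups are linked was not tested. The ratio of IFS2 to IFS1 was not run, as IFS1 had no reads. With one library left out, 0 to 2 genes were called between lines at single times, 0 to 3 later times with lines averaged, 0 to 8 within lines and 0 to 2 for the interaction, each upper value without BC 0 h replicate 1, which makes the library that stood apart the only baseline of BC. Without one library, the log2 fold change of BC against W averaged over times ran from -0.0351 to 0.194 for CHI1A and from -0.176 to 0.195 for CHI1B2. At single times it ran from -1.83 to 0.0323 (CHI1B2, 0 h), -0.0386 to 0.208 (CHI1A, 4 h), -0.0386 to 0.30001 (CHI1A, 8 h), -0.133 to 2.28 (IFS2, 24 h) and -0.416 to 0.860 (IFS2, 48 h). Against 0 h with lines averaged, CHI1A ran from -0.000729 to 0.572 at 4 h, -0.123 to 0.449 at 8 h and -0.00563 to 0.566 at 48 h, and CHI1B2 from -0.105 to 0.824 at 8 h, -0.157 to 0.773 at 24 h and -0.336 to 0.593 at 48 h. Within BC, CHI1B2 ran from -0.200 to 1.66 at 4 h and -0.338 to 1.52 at 8 h, and IFS2 from -0.507 to 0.778 at 48 h. Within W, CHI1B2 ran from -0.0196 to 0.635 at 4 h and -0.0612 to 0.337 at 8 h, and CHI1A from -0.134 to 0.237 at 24 h. The ratio of CHI1B2 to CHI1A, BC minus W, ran from -0.162 to 0.0259. The few reads of CHI1B2 (12 to 307 per library) limit its precision.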
